A study of Mus musculus with 10 samples.

Results

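The collagen gene family comprised the 44 genes, of 46095 gene symbols in the count table, whose symbol names a collagen alpha chain (Col, a type number, the letter a and a chain number). Every symbol of that form was taken, whatever its level. The genes were studied in the C3H10 T1/2 line, mouse embryo fibroblasts that can take up several mesenchymal fates, by RNA-seq and by ATAC-seq, in which a transposase marks open chromatin. RNA-seq compared 3 libraries of cells under cyclic mechanical strain with 3 libraries of static control cells, and all 6 carry the strain label C57BL/6. All RNA-seq cells were cultured on flexible plates whose surface carried type I collagen protein. The strained cells were first cultured for 48 h, then stretched by 10% at 0.5 Hz in a sine wave, 8 h a day on 3 days. ATAC-seq compared 2 libraries of Piezo1 knockout cells with 2 libraries of GFP control cells of the same line, each from 50000 cells. The labels name no strain treatment for the ATAC-seq cells and do not say whether the knockout was a single clone. Whether libraries of a group are separate cultures is also not stated, and p-values thus reflect a spread between libraries that may be technical only.

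Collagens are extracellular proteins in which alpha chains wind around each other into a triple helix, either as copies of a single chain or as a fixed mixture of different chains. Fibrillar collagens build the fibres that carry load in bone, tendon and skin, FACIT collagens sit on the surface of those fibres, and network collagens form sheets such as the basement membrane. Membrane collagens span the plasma membrane, and the beaded collagen, type VI, forms filaments in the matrix around cells. Mesenchymal cells are a main source of type I collagen, and chains are modified, folded and secreted before proteases trim them and oxidases crosslink them outside the cell.

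The RNA-seq libraries held 37233101 to 41024689 counts in strained cells and 36150738 to 38491897 counts in static control cells. Strain replicate 1 and control replicate 3 stood furthest from the other libraries of their groups. Chi-square per degree of freedom was 48.2 and 37.7 for strain replicate 1 against the other strain libraries, which had 16.9 between them, and 40.5 and 64.7 for control replicate 3 against the other control libraries, which had 9.78 between them. Ribosomal protein genes took 2.51% to 3.07% of the counts in strained cells and 3.40% to 4.95% in static control cells, with the highest share in control replicate 3, and the part of this difference in the collagen values was not tested. Of 12 mesenchymal and fibroblast markers 11 were tested, and their summed level was 29150 to 35360 CPM (counts scaled to a common library size with TMM factors) in strained cells and 28600 to 34290 CPM in static control cells. That sum is mostly Fn1, which was not called, with 25452 ± 2912 CPM in strained cells and 22426 ± 3575 CPM in static control cells (SD, n = 3 each). Of the 11, Vim (log2 fold change −0.47, adjusted p = 0.0356, edgeR) and Twist1 (−0.51, adjusted p = 0.00662) were called lower, and the call of Vim was kept without control replicate 2 but lost without any other single library, with an adjusted p of up to 0.0973. Thy1, a surface marker of many fibroblasts, was under 1 CPM. In bulk RNA, fewer cells of a type and less RNA per cell cannot be told apart.

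Most of the measured collagen genes had lower transcript levels under strain, and none was called higher. The family took 4.45%, 5.03% and 4.77% of all counts in the 3 strained libraries, against 7.004%, 7.11% and 6.54% in the 3 static control libraries. Every strained library lay below every control library, and the difference in means of −2.13 percentage points had the smallest p that an exact two-sided permutation test of 3 against 3 can give (p = 0.1). Without Col1a1, Col1a2 and Col3a1, the remaining collagens took 1.07%, 1.24% and 1.11% of the counts in strained cells, against 1.49%, 1.53% and 1.27% in static control cells, again without overlap.

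Of the 44 collagen genes, 31 passed the filter on low counts, and each of those exceeded its level of 0.264 CPM in all 6 libraries. EdgeR's quasi-likelihood test with Benjamini-Hochberg adjustment over all 15335 genes tested called 18 of the 31 lower under strain, against a background of 7.39% of all genes called lower. It called 0 of the 31 higher, where 5.94% of all genes were called higher. No member was higher at an unadjusted p under 0.05, and DESeq2 and limma-voom also called 0 higher, while 20 of the 31 members reached that unadjusted level in either direction. The share of all genes at that unadjusted level was not computed, so the count of 20 has no background beside it. The log2 fold change (strain over control) was below 0 for 30 of the 31, with a median of −0.45, while the median of all genes tested was 0.0049. All 3 strained libraries lay below all 3 control libraries for 21 of the 31, against 17.9% of all genes tested. Of 2002 genes of at least 100 CPM on average 10.3% were called lower, with a median of 0.038, and of the 16 collagens among them 10 were called lower and 0 higher, with a median of −0.51.

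**Figure D1:**
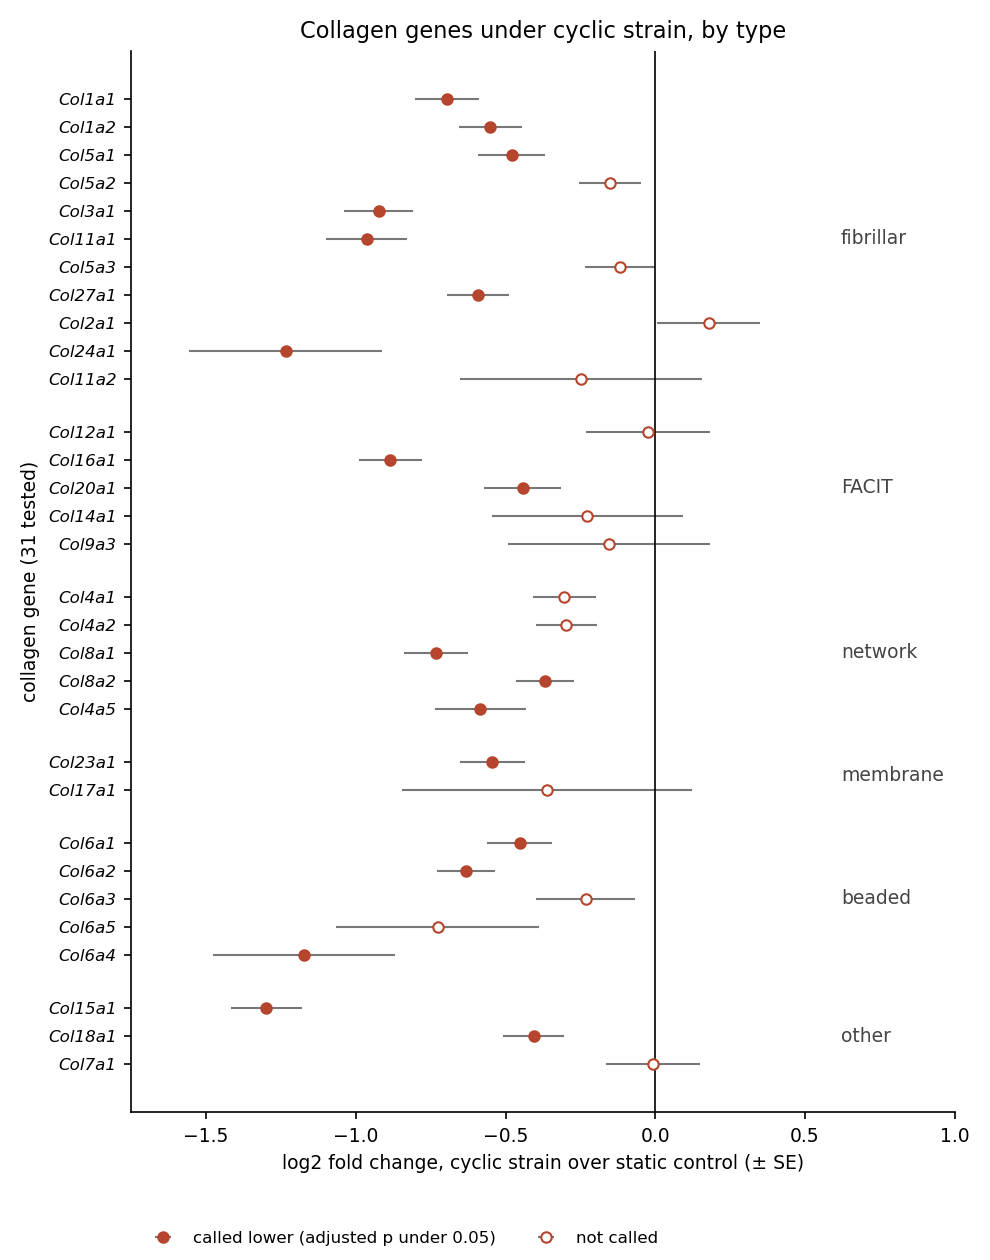
Log2 fold change (strain over static control) of the 31 tested collagen genes with its standard error, grouped by collagen type; filled points are genes called lower by edgeR. All points but that of Col2a1 lie below 0, from −1.30 for Col15a1 to 0.18 for Col2a1.

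The plot of log2 fold changes by collagen type shows that called genes occurred in each type. Calls were made for 7 of 11 tested fibrillar genes, 2 of 5 FACIT genes, 3 of 5 network genes, 1 of 2 membrane genes, 3 of 5 beaded genes and 2 of 3 genes outside these types. When each library was left out in turn, 10 to 19 collagen genes were called lower and 0 higher. The 10 genes called lower in all 6 of those fits were Col1a1, Col1a2, Col3a1, Col11a1, Col27a1, Col16a1, Col8a1, Col23a1, Col6a2 and Col15a1. The fewest, 10, were called without strain replicate 3 or without control replicate 1, and the most, 19, without control replicate 3. Control replicate 3 was the lowest of the control libraries for 23 of the 31 genes, and strain replicate 1 the lowest of the strained libraries for 11. Neither was counted over all genes, so a shift of a whole library cannot be told from a trait of collagens.

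Promoter sequences of 4 genes called lower with high counts are shown, to let the letters behind the motif counts be read. They are the 150 bases before the annotated start of the gene from RefSeq, build GRCm38.p6, written from 5′ to 3′ on the gene's strand. Capitals mark a match to the letters of the CCAAT box (CCAAT, with ATTGG for the opposite strand), of the TATA box (TATAAA, with TTTATA for the opposite strand) or of the GC box (GGGCGG, with CCGCCC for the opposite strand), and no matches in the printed windows overlapped. The promoter of Col1a2 lies at chr6:4505468-4505617 on the plus strand, that of Col3a1 at chr1:45311388-45311537 on the plus strand, that of Col8a1 at chr16:57754738-57754887 on the minus strand and that of Col6a1 at chr10:76726045-76726194 on the minus strand.
Col1a2: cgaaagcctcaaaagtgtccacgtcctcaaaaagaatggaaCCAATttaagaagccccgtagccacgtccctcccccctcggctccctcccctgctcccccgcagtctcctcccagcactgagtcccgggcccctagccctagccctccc
Col3a1: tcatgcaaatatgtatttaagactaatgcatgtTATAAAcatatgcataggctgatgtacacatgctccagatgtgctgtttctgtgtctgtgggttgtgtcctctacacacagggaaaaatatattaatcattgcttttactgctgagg
Col8a1: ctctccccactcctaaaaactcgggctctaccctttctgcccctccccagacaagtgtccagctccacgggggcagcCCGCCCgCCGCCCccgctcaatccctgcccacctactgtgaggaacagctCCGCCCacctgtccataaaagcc
Col6a1: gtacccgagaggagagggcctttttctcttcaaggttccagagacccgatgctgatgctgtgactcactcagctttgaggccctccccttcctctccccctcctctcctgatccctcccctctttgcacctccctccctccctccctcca

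In these windows the promoter of Col1a2 held CCAAT 109 bases before the start, that of Col3a1 held TATAAA 117 bases before it, and that of Col8a1 held CCGCCC at 73, 66 and 23 bases before it. The window of Col6a1 held none of these letters. A promoter was annotated for 35 of the 44 genes, and for 38 starts in all. Over the 250 bases before the start, CCAAT or its complement was found in 34.2% of the 38 collagen promoters and in 33.8% of all 32851 promoters. TATAAA or its complement was found in 13.2% of the collagen promoters and in 12.4% of all promoters. Of the 27 promoters of tested collagens 40.7% held a CCAAT box, 66.7% a GC box and 11.1% a TATA box. Among the 13497 promoters of all genes tested in RNA-seq, 34.9% held a CCAAT box, 55.8% a GC box and 6.68% a TATA box. GGGCGG or its complement was found in 57.9% of the collagen promoters and in 32.7% of all promoters. Among the 19 promoters of the called genes, 31.6% held a CCAAT box, 68.4% a GC box and 5.26% a TATA box.

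Of the 11 fibrillar genes, all tested, 7 were called lower, and type I chains had the highest counts. Col1a1 (chr11:94936224-94953042) and Col1a2 (chr6:4505618-4541543) encode both chains of type I collagen, the main protein of bone and tendon. The level of Col1a1 was 17031, 19833 and 19564 CPM in strained cells, against 30336, 30779 and 30255 CPM in static control cells. Col1a2 had 14391, 16646 and 15795 CPM in strained cells, against 22929, 23634 and 22031 CPM in static control cells. Both genes were lower in each strained library than in each control library, and the strain replicate 1 level was the lowest of all. The log2 fold change was −0.70 for Col1a1 (SE 0.11, adjusted p = 0.00236, edgeR) and −0.55 for Col1a2 (SE 0.11, adjusted p = 0.00734, edgeR). CPM values are not divided by transcript length, so a higher CPM of a gene or type than of another is a higher count, not a higher level of transcripts.

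Col3a1 (chr1:45311538-45349706), whose chain forms type III collagen in elastic tissues and in early repair, fell further. It had 1069, 1322 and 1067 CPM in strained cells, against 2144, 2302 and 2112 CPM in static control cells, with no overlap. Its log2 fold change was −0.92 (SE 0.12, adjusted p = 7.7e-04, edgeR), a level 1.90-fold lower under strain. Col5a2, which encodes a chain of type V collagen, the collagen that starts and limits type I fibrils, lies 24625 bases from Col3a1 on chromosome 1. Col5a2 had 1754, 1768 and 1607 CPM in strained cells, against 1999, 1962 and 1737 CPM in static control cells. These groups overlapped, since control replicate 3 lay below strain replicates 1 and 2, and the log2 fold change of −0.15 was not called (SE 0.10, adjusted p = 0.358, edgeR).

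Col5a1, the partner chain of Col5a2 in type V collagen, had 1728, 1854 and 1680 CPM in strained cells, against 2617, 2579 and 2139 CPM in static control cells. The groups did not overlap, and Col5a1 fell with a log2 fold change of −0.48 (SE 0.11, adjusted p = 0.0200, edgeR). That call was lost without strain replicate 3 or without control replicate 1, where the adjusted p reached 0.106. Col5a3, a further type V chain, had 97.5 to 116 CPM in strained cells and 102 to 128 CPM in static control cells, which overlapped and were not called (log2 fold change −0.12).

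Col11a1 encodes a chain of type XI collagen, a minor fibril component of cartilage. It had 173, 209 and 157 CPM in strained cells, against 365, 387 and 299 CPM in static control cells. Its log2 fold change was −0.96 (SE 0.14, adjusted p = 0.00151, edgeR), and the highest strained library lay below the lowest control library. Col27a1, a fibrillar collagen of developing cartilage, had 25.8, 28.3 and 28.3 CPM in strained cells, against 43.7, 38.8 and 41.8 CPM in static control cells. It fell with a log2 fold change of −0.59 (SE 0.10, adjusted p = 0.00463, edgeR), without overlap. Col24a1, a fibrillar chain of developing bone, had 1.47, 0.989 and 0.654 CPM in strained cells, against 2.67, 2.64 and 2.02 CPM in static control cells. Its log2 fold change of −1.23 was called (SE 0.32, adjusted p = 0.0318, edgeR), but the call was lost without strain replicate 2 or 3 or without control replicate 1 or 2, where the adjusted p reached 0.107.

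No call was made for Col2a1 or Col11a2, which encode chains of cartilage collagens. Col11a2 had 0.641 to 1.54 CPM in strained cells and 0.910 to 1.85 CPM in static control cells (log2 fold change −0.25). Col2a1 had 19.9, 14.6 and 12.4 CPM in strained cells and 15.1, 13.5 and 12.9 CPM in static control cells. It was the only tested collagen with a log2 fold change above 0 (0.18, adjusted p = 0.525, edgeR), and that sign rested on strain replicate 1, without which it was −0.03. Of 8 chondrocyte markers 3 were tested, Matn1 was at 0 in all libraries and Acan and Hapln1, the defining matrix genes of cartilage, did not pass the filter. Comp, a cartilage matrix gene, was called lower (log2 fold change −1.56, adjusted p = 0.0111, edgeR), at 0.916 CPM on average in strained cells and 2.70 CPM in static control cells. The summed level of these markers, mostly that of Sox9, was 42.6 to 58.7 CPM in strained cells and 54.9 to 63.4 CPM in static control cells.

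**Figure D2:**
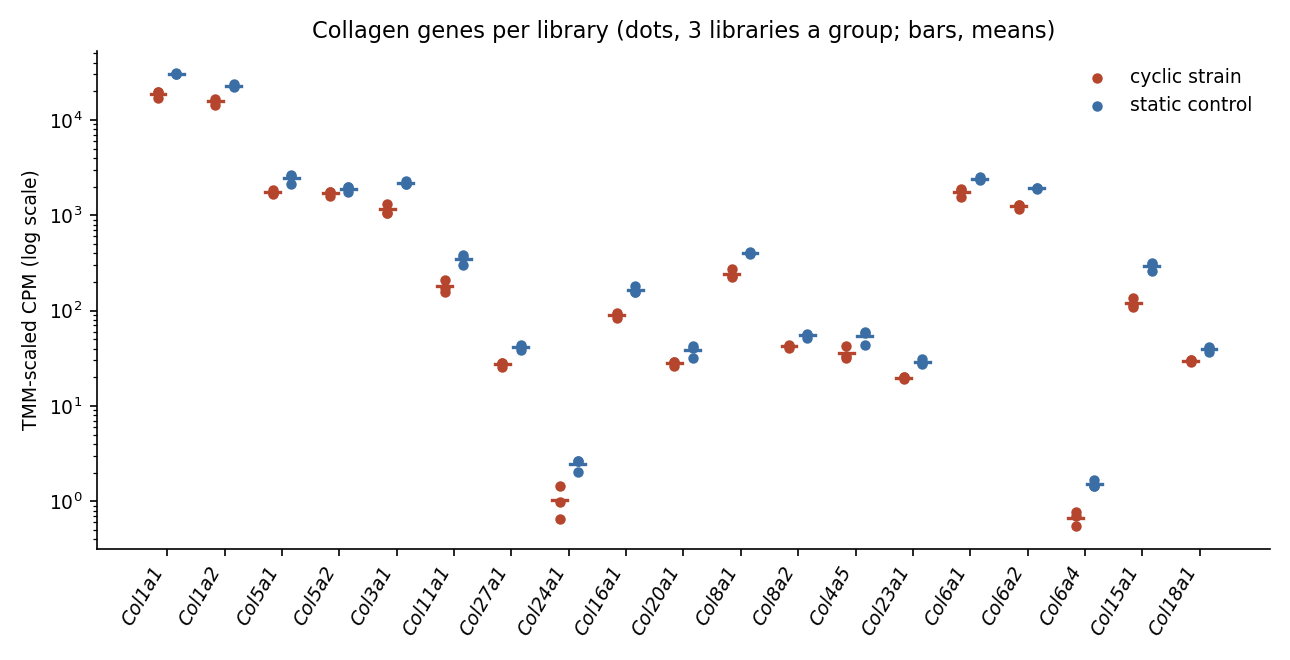
Level (TMM-scaled CPM, log axis) of the 18 collagen genes called lower and of Col5a2 in each of the 3 strained and 3 static control libraries. Dots are libraries and bars are means, with strained cells on the left of each pair; the groups of Col5a2 overlap and those of Col1a1, Col3a1, Col11a1 and Col15a1 do not.

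The plot of levels by library shows how tight the groups were for the chains of high count. Col1a1 averaged 18809 ± 1546 CPM in the strained libraries and 30457 ± 282 CPM in the control libraries (SD, n = 3 each). Of the genes drawn, Col5a2 alone had groups that overlapped.

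FACIT collagens were split between genes that fell and a gene of high count with no call. Col16a1 (chr4:130047817-130099277), a FACIT chain made by fibroblasts, had 95.4, 91.9 and 83.1 CPM in strained cells, against 182, 158 and 158 CPM in static control cells. It fell with a log2 fold change of −0.88 (SE 0.10, adjusted p = 5.36e-04, edgeR), and the groups did not overlap. Col20a1, another FACIT chain, had 26.5, 29.0 and 28.9 CPM in strained cells, against 42.5, 40.5 and 31.6 CPM in static control cells. Its log2 fold change of −0.44 was near the threshold (SE 0.13, adjusted p = 0.0455, edgeR), and the call was kept in the fit without control replicate 3 but lost without any other single library, with an adjusted p of up to 0.189. Col12a1, the FACIT chain of tendon and ligament fibres, had 1144, 1941 and 1436 CPM in strained cells, against 1612, 1842 and 1141 CPM in static control cells. The groups overlapped fully (log2 fold change −0.02, SE 0.21, adjusted p = 0.955, edgeR), and the lowest values were those of strain replicate 1 and control replicate 3. The fold changes of Col14a1 and Col9a3 were −0.23 and −0.15 on the log2 scale and were not called.

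Network collagens were lower in each strained library for all 5 tested genes, and 3 of them were called. Col8a1 (chr16:57624256-57754737) and Col8a2 encode the chains of type VIII collagen, a sheet-forming collagen of vessels and the cornea. Col8a1 had 229, 274 and 225 CPM in strained cells, against 409, 405 and 396 CPM in static control cells, with a log2 fold change of −0.73 (SE 0.11, adjusted p = 0.00177, edgeR). Col8a2 had 43.0, 43.6 and 41.0 CPM in strained cells, against 57.5, 56.0 and 51.2 CPM in static control cells, with a log2 fold change of −0.37 (SE 0.098, adjusted p = 0.0346, edgeR). Neither gene's groups overlapped, but the call of Col8a2 was lost without any single library other than control replicate 3, with an adjusted p of up to 0.156.

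Col4a1, Col4a2 and Col4a5 encode chains of type IV collagen, the main network of basement membranes. Col4a5, on the X chromosome, had 33.5, 42.7 and 31.7 CPM in strained cells, against 58.5, 59.6 and 43.7 CPM in static control cells. It fell with a log2 fold change of −0.58 (SE 0.15, adjusted p = 0.0317, edgeR), and the call was lost without strain replicate 1 or 3 or without control replicate 1 or 2, with an adjusted p of up to 0.12. Col4a1 and Col4a2 lie head to head on chromosome 8 with an overlap of 85 bases, and reads there cannot be assigned to a strand in the sources used here. Col4a1 had 492, 494 and 445 CPM in strained cells, against 606, 631 and 530.5 CPM in static control cells. Col4a2 had 482, 462 and 455 CPM in strained cells, against 604, 602 and 514 CPM in static control cells. No groups overlapped, but neither log2 fold change of −0.30 was called (adjusted p = 0.0805 for Col4a1 and 0.0794 for Col4a2, edgeR). DESeq2 called both lower (adjusted p = 0.0403 for Col4a1 and 0.0365 for Col4a2), as did edgeR without control replicate 3 (adjusted p = 0.0299 for Col4a1 and 0.0233 for Col4a2). Over all alternatives the adjusted p ran between 0.00596 and 0.248 for Col4a1 and between 0.00356 and 0.276 for Col4a2.

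The membrane collagen Col23a1 (chr11:51289679-51583925) had 20.2, 19.99 and 19.3 CPM in strained cells, against 28.1, 27.6 and 31.01 CPM in static control cells. It fell with a log2 fold change of −0.54 (SE 0.11, adjusted p = 0.00839, edgeR) and no overlap. Col17a1, a membrane collagen of epithelial attachment, had 0.456 to 1.10 CPM in strained cells and 0.444 to 1.45 CPM in static control cells and was not called (log2 fold change −0.36, adjusted p = 0.658, edgeR).

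Of the beaded collagens, Col6a1, Col6a2 and Col6a4 were called lower and Col6a3 and Col6a5 were not. Col6a1, Col6a2 and Col6a3 encode the chains of the usual type VI molecule. Col6a1 had 1558, 1885 and 1855 CPM in strained cells, against 2411, 2504 and 2333 CPM in static control cells, with a log2 fold change of −0.45 (SE 0.11, adjusted p = 0.0226, edgeR). Col6a2 (chr10:76595756-76623630) had 1153, 1287 and 1275 CPM in strained cells, against 1897, 1922 and 1943 CPM in static control cells, with a log2 fold change of −0.63 (SE 0.097, adjusted p = 0.00236, edgeR). Neither gene's groups overlapped, and the call of Col6a1 was lost without strain replicate 3 or without control replicate 1 or 2, with an adjusted p of up to 0.0897. Col6a3 had 1048, 1570 and 1358 CPM in strained cells, against 1588, 1818 and 1267 CPM in static control cells. Its groups overlapped (log2 fold change −0.23, SE 0.17, adjusted p = 0.381, edgeR), and, as for Col12a1, strain replicate 1 and control replicate 3 were the lowest of their groups. Col6a4, a further type VI chain, had 0.552, 0.695 and 0.775 CPM in strained cells, against 1.46, 1.43 and 1.68 CPM in static control cells. It was called at a log2 fold change of −1.17 (SE 0.30, adjusted p = 0.0307, edgeR), and the call was kept without control replicate 2 but lost without any other single library, with an adjusted p of up to 0.0906. Col6a5 had 0.872 to 0.935 CPM in strained cells and 1.14 to 2.17 CPM in static control cells and was not called (log2 fold change −0.73, adjusted p = 0.180, edgeR).

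Col15a1 (chr4:47207655-47313167) and Col18a1, chains of proteoglycan collagens at basement membranes, were assigned to no main type. Col15a1 had 110.0, 135 and 116 CPM in strained cells, against 308, 318 and 260 CPM in static control cells. It had the lowest log2 fold change of the 31 genes, −1.30 (SE 0.12, adjusted p = 1.13e-04, edgeR), and a level 2.46-fold lower under strain. All strained libraries lay far below all control libraries. Col18a1 had 29.999, 29.2 and 30.6 CPM in strained cells, against 41.5, 40.5 and 37.0 CPM in static control cells. Its log2 fold change of −0.41 was called (SE 0.10, adjusted p = 0.0260, edgeR), without overlap, and the call was lost without strain replicate 2 or 3 or without control replicate 1 or 2, with an adjusted p of up to 0.13. Col7a1, the anchoring fibril chain of skin, had 5.16 to 6.54 CPM in strained cells and 5.87 to 6.00 CPM in static control cells, with no call (log2 fold change −0.0089). Annotated spans of Col15a1 and Col16a1 overlap those of Gm12426 and Gm12963, so their values are uncertain if reads were counted without regard to strand.

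The remaining 13 genes had too few counts to test. Over 3 libraries each, strained cells held 28 counts and control cells 17 of Col28a1, strained cells held 25 and control cells 9 of Col10a1, the hypertrophic cartilage chain, and strained cells held 18 and control cells 27 of Col25a1. Col4a6 had 11 counts in strained cells and 16 in control cells, and Col9a2, a chain of cartilage type IX collagen, had 1 in strained cells and 16 in control cells. Col9a1, its partner chain, had 0 counts in strained cells and 6 in control cells. Col6a6, Col4a4, Col26a1, Col22a1, Col4a3 and Col19a1 had at most 5 counts in any group. Col13a1 had 0 of 229229967 counts in all 6 libraries, which allows a level of up to 0.0131 CPM. Such intervals cover counting error only, since reads without molecular identifiers need not be independent molecules.

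**Figure D3:**
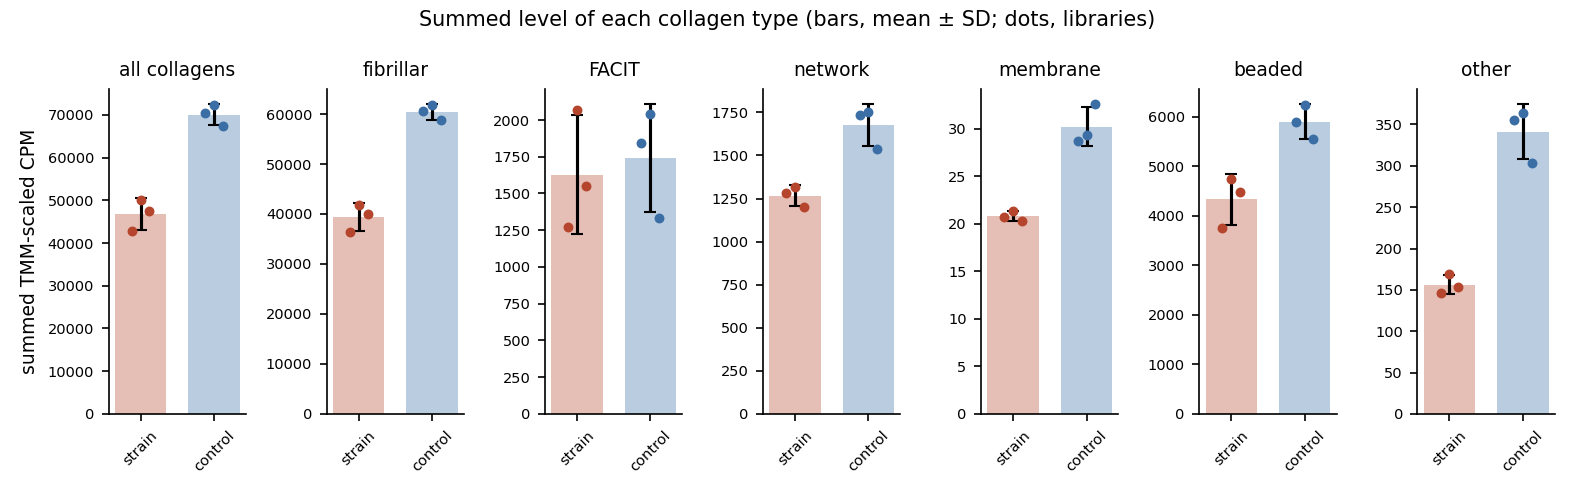
Summed level (TMM-scaled CPM, linear axes that start at 0, a scale for each panel) of all collagens and of each type; bars are means ± SD of 3 libraries, dots are libraries, and strained cells are on the left. The strained libraries lie below all control libraries in each type but FACIT.

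Summed over the chains of a type, the groups separated in every type except FACIT. Fibrillar chains together had 36310, 41773 and 40014 CPM in strained cells, against 60581, 61802 and 58742 CPM in static control cells, a log2 ratio of −0.62. Col1a1 and Col1a2 made most of that sum. They averaged 18809 and 15611 of 39366 CPM in strained cells, and 30457 and 22865 of 60375 CPM in static control cells. Beaded chains had 3760, 4744 and 4489 CPM in strained cells, against 5900, 6247 and 5545 CPM in static control cells (log2 ratio −0.45). The network chains had 1279, 1318 and 1198 CPM in strained cells, against 1735, 1754 and 1535 CPM in static control cells (log2 ratio −0.40). Membrane chains had a log2 ratio of −0.54, but their sum was nearly all Col23a1. It averaged 19.8 of 20.8 CPM in strained cells and 28.9 of 30.2 CPM in static control cells. The chains outside the main types had a log2 ratio of −1.13. Each of these 5 sums had p = 0.1 in the exact two-sided permutation test of 3 against 3, the smallest it allows, and p = 0.12 after adjustment over 6 types. FACIT chains had 1270, 2065 and 1550 CPM in strained cells and 1842, 2044 and 1334 CPM in static control cells, which overlapped (log2 ratio −0.10, exact permutation p = 0.8). Without Col12a1, its member of highest count, the FACIT log2 ratio was −0.78, and without Col15a1 that of the chains outside the main types was −0.34.

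**Figure D4:**
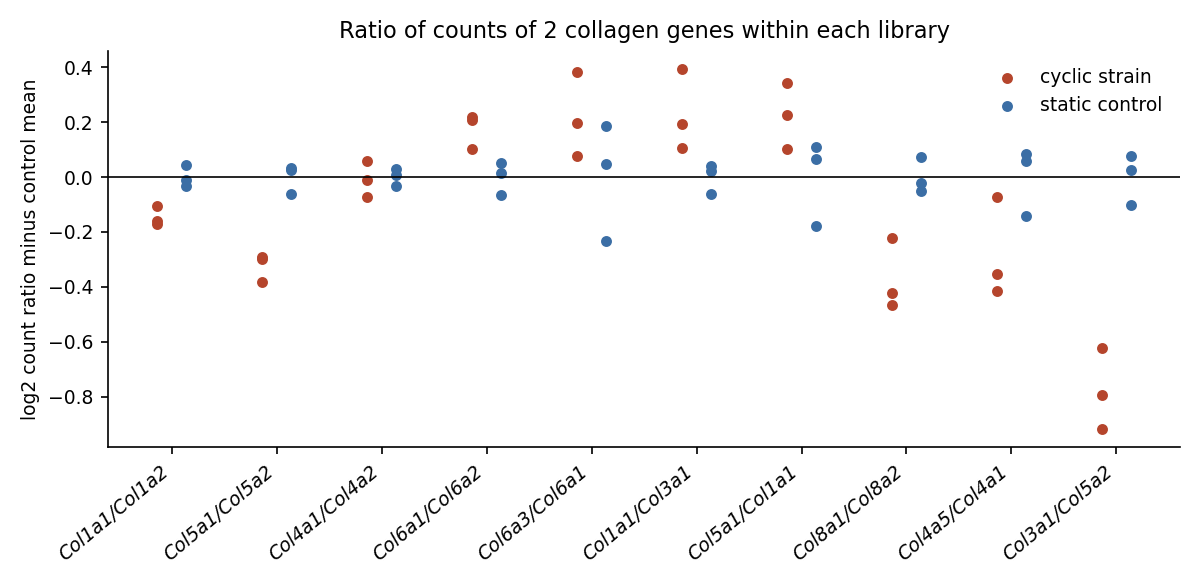
Log2 ratio of the counts of 2 collagen genes within each library, minus the mean of the static control libraries; dots are libraries, strained on the left of each pair, and Col3a1/Col5a2 was added after its values were seen. Col1a1/Col1a2, Col5a1/Col5a2 and Col8a1/Col8a2 were lower in all strained libraries, and Col6a1/Col6a2 and Col1a1/Col3a1 were higher.

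Ratios between collagen chains were compared for 9 pairs, since a ratio of counts within a library does not depend on library scaling. For 5 of the 9 the groups did not overlap. No share of such separation was computed over other gene pairs, and some genes, such as Col1a1, occur in several of the pairs. Of single genes tested, 17.9% lay lower and 17.4% higher in all strained libraries than in all control libraries. The ratio of Col1a1 to Col1a2 was 1.18, 1.19 and 1.24 in strained cells, against 1.32, 1.30 and 1.37 in static control cells. The ratio of Col5a1 to Col5a2 was 0.985, 1.05 and 1.05 in strained cells, against 1.31, 1.31 and 1.23 in static control cells. Col8a1 to Col8a2 gave 5.32, 6.30 and 5.48 in strained cells, against 7.10, 7.24 and 7.73 in static control cells. These 3 ratios were lower in every strained library than in every control library, with log2 ratios of strain to control of −0.15, −0.32 and −0.37. The opposite order was found for Col6a1 to Col6a2, with 1.35, 1.46 and 1.45 in strained cells, against 1.27, 1.30 and 1.20 in static control cells. Col1a1 to Col3a1 was likewise higher in strained cells, at 15.9, 15.0 and 18.3, against 14.2, 13.4 and 14.3 in static control cells. For each of these 5 pairs the exact two-sided permutation test gave p = 0.1, the smallest possible, and p = 0.18 adjusted over 9 pairs.

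The ratio of the head-to-head pair Col4a1 to Col4a2 was 1.02, 1.07 and 0.979 in strained cells and 1.00, 1.05 and 1.03 in static control cells, which overlapped (exact permutation p = 0.9). Ratios of Col6a3 to Col6a1, Col5a1 to Col1a1 and Col4a5 to Col4a1 also overlapped between groups (exact permutation p = 0.2 for each, 0.225 adjusted). The neighbours Col3a1 and Col5a2 were added as a pair after their values were seen. Their ratio was 0.609, 0.747 and 0.664 in strained cells, against 1.07, 1.17 and 1.22 in static control cells.

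Among genes that act on collagen, those for folding and modification had the most lower calls. Of 20 tested, edgeR called 7 lower and 0 higher, against 7.39% of all genes called lower and 5.94% called higher. In either direction 11 reached an unadjusted p of 0.05, a level for which no share over all genes was computed. DESeq2 called 8 and limma-voom called 6. Over all 15335 genes DESeq2 called 1320 higher and 1540 lower, and limma-voom 934 higher and 1147 lower. The smallest p was that of P4ha2, a prolyl 4-hydroxylase subunit that stabilises the triple helix, with 385 ± 41.6 CPM in strained cells and 689 ± 45.8 CPM in static control cells (SD, n = 3 each; log2 fold change −0.84, adjusted p = 0.00108, edgeR). P3h3, of the prolyl 3-hydroxylase family, had a log2 fold change of −0.71 (adjusted p = 0.00167, edgeR). Sparc, a collagen-binding secreted protein, had a log2 fold change of −0.70 (adjusted p = 0.00275, edgeR). Leaving out single libraries gave 4 to 8 called lower, with 4 without strain replicate 3 or without control replicate 1. Of 13 tested genes for export and cleavage of procollagen edgeR called 0, with 5 at an unadjusted p under 0.05, limma-voom called 0 and DESeq2 called 1, and the median log2 fold change was 0.22. Here too the count at the unadjusted level has no share over all genes beside it.

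The counts in the next lists are small and are to be read against 7.39% of all genes called lower and 5.94% called higher. Of 6 crosslinking genes 1 was called lower and 1 higher. Loxl2, a lysyl oxidase family member, fell (log2 fold change −0.61, adjusted p = 0.00589, edgeR). Loxl3, of the same family, rose at the threshold (log2 fold change 0.38, adjusted p = 0.0499, edgeR), and its call was kept without strain replicate 1 but lost without any other single library, with an adjusted p of up to 0.19. Of 10 tested receptors 1 was called, a share near that background. This was Itga10, the alpha subunit of a collagen-binding integrin of cartilage, which was lower (log2 fold change −0.97, adjusted p = 0.0027, edgeR). Without control replicate 3, 2 receptors were called lower. Of 9 tested collagen-cleaving proteases 2 rose and 2 fell, and 1 rose in each fit that left out a library other than control replicate 3, where 3 rose. Mmp13, the main fibrillar collagenase of rodents, had 360, 384 and 283 CPM in strained cells, against 175, 199 and 168 CPM in static control cells, and rose without overlap (log2 fold change 0.92, adjusted p = 0.00149, edgeR). Mmp9, a gelatinase, fell with a log2 fold change of −1.73 (adjusted p = 0.00245, edgeR), and averaged 1.04 CPM in strained cells and 3.47 CPM in static control cells. Fap, a cell surface protease of activated fibroblasts, fell with a log2 fold change of −1.74 (adjusted p = 0.00987, edgeR). Its level was also low, at 0.673 CPM on average in strained cells and 2.26 CPM in static control cells.

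Of 23 tested regulators of collagen genes 2 were called higher and 5 lower. The number called lower was 4 without strain replicate 1 or control replicate 2, 2 without strain replicate 2 or control replicate 3, and 1 without strain replicate 3 or control replicate 1. The number called higher was 3 without control replicate 2 and 1 without any other single library. Sp7, the osteoblast transcription factor, had 6.89, 10.7 and 10.6 CPM in strained cells, against 31.1, 32.1 and 32.3 CPM in static control cells, with a log2 fold change of −1.76 (adjusted p = 1.39e-04, edgeR). Mkx, a tendon transcription factor that promotes type I collagen genes in mouse, rose (log2 fold change 0.56, adjusted p = 0.00886, edgeR). Tgfb2, a ligand that raises collagen synthesis in many cells, fell (log2 fold change −0.54, adjusted p = 0.0134, edgeR), and its call was lost without strain replicate 3 or without control replicate 1, with an adjusted p of up to 0.07.

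Markers of other cell types moved in part with the collagens. Of 7 tested osteoblast markers 5 were called lower, against 7.39% of all genes tested. They were Alpl (log2 fold change −1.23), Omd (−1.18), Pth1r (−1.16), Sp7 (−1.76) and Ibsp. Runx2 was not called (log2 fold change −0.15, adjusted p = 0.404, edgeR), and Bglap, Dmp1 and Phex did not pass the filter. Ibsp was close to 0 in strained cells. The sum over the list was mostly Spp1, which was not called (2534 ± 124 CPM in strained cells and 2185 ± 94.1 CPM in static control cells, SD, n = 3 each), and was 2691 to 2884 CPM in strained cells and 2548 to 2721 CPM in static control cells. The summed tendon markers were 746 to 953.5 CPM in strained cells and 2108 to 2209 CPM in static control cells, with Tnmd and Thbs4 at 0. Most of the control sum was Fmod, a small collagen-binding proteoglycan. Fmod averaged 389 CPM in strained cells and 1787 CPM in static control cells (log2 fold change −2.20, adjusted p = 5.13e-06, edgeR). The other tested tendon markers did not fall with it, since Mkx was called higher (log2 fold change 0.56) and Scx (−0.21) and Egr1 (0.31) were not called. Leukocyte markers summed to 19.3 to 22.5 CPM in strained cells and 8.596 to 11.4 CPM in static control cells, with Ptprc and Cd3e at 0 in all libraries. Most of that sum was Cd14, which was called higher (log2 fold change 1.34, adjusted p = 3.76e-04, edgeR). Epithelial markers summed to 3.00 to 4.53 CPM in strained cells and 8.45 to 9.75 CPM in static control cells, with Epcam at 0 and Cdh1 called lower (log2 fold change −1.91, adjusted p = 0.00211, edgeR). Adipocyte markers summed to 28.8 to 38.4 CPM in strained cells and 27.4 to 33.9 CPM in static control cells, and neural markers to 46.6 to 61.3 CPM in strained cells and 54.0 to 66.1 CPM in static control cells, with Lep and Sox10 at 0. Among these, S100b was called lower (log2 fold change −1.83, adjusted p = 2.47e-04, edgeR), and Fabp4 was called higher (log2 fold change 0.69, adjusted p = 0.0468, edgeR), a call kept without control replicate 3 but lost without any other single library, with an adjusted p of up to 0.165. Endothelial markers summed to 3.96 to 6.37 CPM in strained cells and 3.07 to 4.05 CPM in static control cells, with Cdh5 and Emcn at 0. The part of any of these genes' sources in the collagen values was not tested.

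ATAC-seq peak lists were searched for peaks at collagen promoters in cells lacking Piezo1, a stretch-activated ion channel, and in GFP control cells. Depth and peak threshold of the lists are unknown, so a promoter without a listed peak was not shown to be closed. The authors' peak lists held 15980 and 13610 peaks in the Piezo1 knockout libraries, against 15978 and 26652 in the GFP control libraries, and GFP control replicate 2 had the most. A peak within 1 kb of an annotated start was found for 3 and 2 of 35 collagen genes in the knockout libraries, against 5 and 8 in the GFP control libraries. As shares these were 8.57% and 5.71% in the knockout libraries, against 14.3% and 22.9% in the GFP control libraries. Over all 26794 genes they were 26.0% and 25.9% in the knockout libraries, against 24.8% and 33.0% in the GFP control libraries. No collagen gene had a peak in both knockout libraries and in neither control library, where the share over all genes was 0.209%. None had a peak in both control libraries and in neither knockout library, where the share over all genes was 1.66%. None had a peak in all 4 libraries, where 20.3% of all genes had one.

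**Figure D5:**
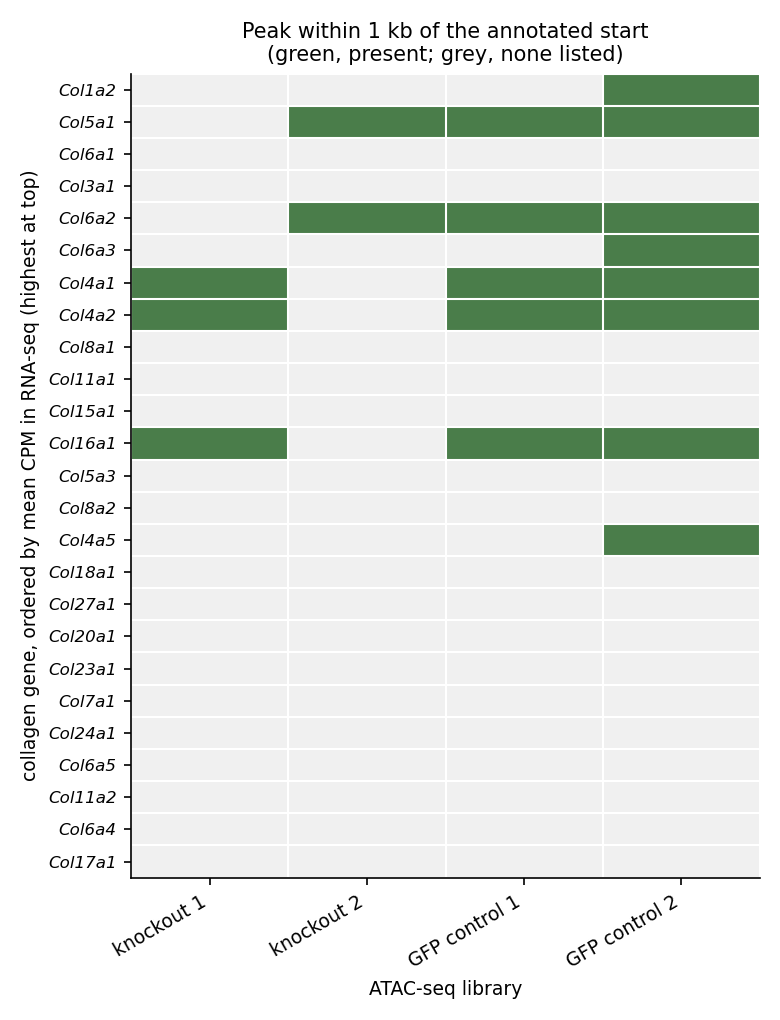
Presence of an ATAC-seq peak within 1 kb of the start of the 25 tested collagen genes with an annotated start, in each of the 2 Piezo1 knockout and 2 GFP control libraries. Col1a1, Col2a1, Col5a2, Col9a3, Col12a1 and Col14a1 were tested but have no annotated start and are not drawn. A filled cell is a peak in that library, and only 8 of the 25 genes drawn have one in any library.

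The map of promoter peaks shows that they were few and changed from library to library. Col5a1 and Col6a2 had a peak in knockout replicate 2 and in both GFP control libraries. Col16a1 had a peak in knockout replicate 1 and in both GFP control libraries, and so did Col4a1 and Col4a2, which share 1 peak over their common start region. Col1a2, Col6a3 and Col4a5 had a peak in GFP control replicate 2 alone. Genes of high count such as Col3a1, Col6a1, Col8a1, Col11a1 and Col15a1 had none. The authors' fold enrichment of the Col6a2 peak over the background of its own library was 3.95 in knockout replicate 2, and 5.09 and 6.28 in the GFP control libraries. Among the 13 collagen genes with an annotated start and at least 100 CPM, 53.8% had a peak in any library, against 88.3% of 1516 genes of that level. With 2 libraries a group no test was made, and the sequencing depth of these libraries is not given in the sources used here.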

How the data were processed

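RNA-seq and ATAC-seq values were taken from the authors' processed data. For RNA-seq the authors deposited whole-number read counts, 1 column a library. STAR, HTSeq, Trim Galore 0.6.5, mm10 and DESeq2 are named in the submitters' processing notes. For ATAC-seq the authors deposited 1 MACS2 peak list per library, with Trim Galore 0.6.5 and Bowtie2 2.4.2 named in the submitters' processing notes. Each deposited peak has a fold enrichment (a ratio), a −log10 p, a −log10 q and a display score, of which the score was not used. The sources used here do not give the versions of STAR, HTSeq and MACS2, the annotation, the strand setting or the peak threshold.

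Counts were tested with edgeR 4.0.16 (R 4.3.3) quasi-likelihood, with TMM scaling, filterByExpr and group as the only term, two-sided, over all 15335 genes tested, at a Benjamini-Hochberg adjusted p of 0.05. The filter corresponds to 0.264 CPM. CPM values were computed from the counts and TMM factors. Sums, shares and chain ratios, 1 value a library, were compared by exact permutation tests, which give no p below 0.1. Starts and promoters came from RefSeq GRCm38.p6, and 38 promoters of 35 members matched. Alternatives were other scalings, no filter, DESeq2 1.42.0, limma-voom 3.58.1, a replicate block, other peak windows and a −log10 q of at least 5, and leaving out libraries. The members and lists were chosen with earlier results of these data known. Every called member and the 6 collagens of highest mean CPM were given in full, and in each pathway list the 3 called genes of smallest p. Called cell type markers were named after their values were seen. Levels were not divided by length, since transcript lengths were not used here.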

Additional observations from a re-analysis of the deposited data

How the results depend on the processing

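The count of collagens called lower was 18 with RLE scaling and with no filter, 16 with library size alone, 20 with DESeq2, 17 with limma-voom and 19 without control replicate 3 and strain replicate 1 together, and 10 to 19 when single libraries were left out. Counts over all genes called higher were 1428 with no filter, 1512 without control replicate 3 and strain replicate 1, and 369 to 1085 when single libraries were left out, and called lower 577 to 1244. With DESeq2, 1320 of all genes were called higher and 1540 lower. With the replicate number as a block, 20 collagens were called lower, and 1557 genes higher against 911 without the block. Deviations from the group mean correlated at 0.0587, 0.373 and 0.191 between same-numbered libraries, and at −0.332 to 0.139 between libraries of different number. These values do not settle whether the numbers pair the libraries. The labels do not say that they do, so the main fit had no block. Among genes, signs changed only for some that were not called. Library size alone gave 0.02 for Col12a1 and 0.041 for Col7a1, and omitting both libraries gave −0.084 for Col2a1 and 0.22 for Col17a1. For Col11a2 omitting both gave −0.80, of the same sign as in the main fit. Leaving out single libraries gave −0.25 to 0.14 for Col12a1, −0.034 to 0.31 for Col2a1, −0.10 to 0.072 for Col7a1, −0.53 to 0.031 for Col9a3, −0.62 to 0.13 for Col11a2, −0.29 to 0.063 for the FACIT sum and −0.041 to 0.023 for the Col4a1 to Col4a2 ratio. Col17a1 kept its sign when single libraries were left out, at −0.74 to −0.067. In the pathway lists leaving out single libraries gave 4 to 8 folding genes called lower, 0 to 1 crosslinking genes higher, 1 to 2 receptors lower, 1 to 3 proteases and 1 to 3 regulators higher, 1 to 4 regulators lower, and 0 to 2 export genes higher, where library size alone gave 2 and DESeq2 1. Library size alone called 2 regulators lower. At a −log10 q of at least 5, knockout replicate 2 had 0 collagen promoter peaks, and 1 promoter had peaks in both control libraries and neither knockout library. The causes were not tested. With 3 libraries a group, small changes of genes near 1 CPM were not detectable.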

Other observations

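Over the whole annotated gene and 1 kb on either side, ATAC-seq peaks were found in 20 and 19 of the 44 collagen genes in the Piezo1 knockout libraries, and in 21 and 27 in the GFP control libraries. The same share was not computed over all genes, so these counts have no background. Annotated spans ran from 7105 bases for Col10a1 to 419527 bases for Col25a1, and the 27 belong to GFP control replicate 2, whose list of 26652 peaks was the longest. Col1a1, which has no annotated promoter in the sequence table used here, had 1 peak within this span in each of the 4 libraries. Col2a1, Col5a2, Col9a3 and Col12a1, also without an annotated promoter, had at least 1 in each library. So did several genes with an annotated promoter, such as Col5a1 and Col27a1. The type I chains together held 73.4%, 72.8% and 74.6% of the collagen counts in strained cells, against 75.6%, 75.3% and 77.5% in static control cells, so the strained libraries all lay below the control libraries.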
